A study of Mus musculus with 6 samples.

Results

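The genes described here are 37 imprinted genes of the mouse, chosen by name and grouped into 17 clusters by their position, out of 23951 rows in the authors' deposited table. All 37 had a row, and 31 of them were among the 14095 rows that the authors' program tested. The other 6 (Igf2, Kcnq1, Airn, Magel2, Rtl1 and Rasgrf1) stood at 0.403 FPKM or less in both genotypes and were not tested. FPKM scale the fragments of a gene to its length and to the mapped fragments of the library, so levels of different genes can be set side by side per length.

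The study sequenced messenger RNA from Alkbh1 knockout (KO) and wild type (WT) mouse embryonic stem (ES) cells, to find genes whose level depends on Alkbh1, which encodes an AlkB dioxygenase. The KO group held 4 libraries, 2 from each of 2 clones, and the WT group held 2. All were TT2 cells, an ES line from a cross of C57BL6 with CBA, grown without feeder cells to passage 5. Nothing in the labels tells separate cultures from repeat libraries of 1 culture, so each q measures only the spread between libraries as the authors' program estimated it. The table gives 1 pooled FPKM value per genotype, so no value below has an SD, no clone or library can be seen by itself, and the sequencing depth is unknown. The sources used here do not say whether all 4 KO libraries entered the KO value and its q. Genotype and clone therefore cannot be told apart in any difference below.

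Imprinted genes are transcribed mainly from the copy inherited from 1 parent. Most lie in clusters that share an imprinting control region, a stretch of DNA whose cytosine methylation is laid down in the germ line of 1 parent and kept through the demethylation of the early embryo. The parental choice is set by an insulator, a long non-coding RNA or a methylated promoter, depending on the cluster. Many imprinted genes act on fetal and placental growth, and their methylation is known to be unstable in cultured ES cells. A gene's FPKM adds up both parental copies, so a change in the parent of origin cannot be read from these values.

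The targeted gene was not called. Alkbh1 stood at 18.1 FPKM in KO and 33.9 FPKM in WT in the authors' deposited table (log2 fold change -0.90, q = 0.0943), and its region there is shared by 5 rows. The ES cell markers matched the label, with all 10 present in both genotypes, from 22.6 FPKM (Tfcp2l1) to 2099 FPKM (Dppa5a) in KO and from 13.8 to 3753 FPKM in WT. Of the 9 tested, 6 were called lower in KO (Utf1, Dppa5a, Pou5f1, Sox2, Dppa4 and Zfp42, the last 2 of which lie above 0 with equal totals and relative to their deciles) and 1 higher (Tfcp2l1), with a median log2 fold change of -0.50, or 0.22 relative to level deciles. Markers of other cells were low in sum. In KO the summed level was 34.0 FPKM over 12 fibroblast markers, 6.56 FPKM over 10 markers of extraembryonic endoderm and 57.7 FPKM over 9 trophoblast markers, against 69.4, 5.81 and 59.6 FPKM in WT. Vim made up most of the fibroblast sum, which without it was 12.1 FPKM in KO and 8.06 FPKM in WT, and Tfap2c most of the trophoblast sum, which without it was 17.6 FPKM in KO and 13.9 FPKM in WT. Single markers moved in both directions. Of the fibroblast markers 6 were tested, with 4 called higher in KO (Pdgfrb, Fbn1, Col1a1 and Thy1) and 2 lower (Acta2 and Vim). Of the trophoblast markers 7 were tested, with 4 called higher (Elf5, Hand1, Eomes and Krt8) and 1 lower (Gata3). Of the endoderm markers 4 were tested, with 2 called higher (Lama1, and Gata4, which lies just below the median of its decile) and 2 lower (Sox7 and Dab2). In WT, Pdgfrb, Fbn1, Col1a1, Elf5 and Gata4 stood below 0.403 FPKM, the highest level of an untested imprinted gene, as did Acta2 in KO. For these markers a call in the other direction may not have been possible. In the authors' deposited table Hand1 had 1.19 FPKM in KO and 0.449 FPKM in WT (log2 fold change 1.41), and Pdgfrb had 0.895 FPKM in KO and 0.318 FPKM in WT (1.49). Of the untested fibroblast markers, Col3a1, Lum, Postn and Twist2 were at 0.0268 FPKM or less in KO and listed at 0 in WT. The other untested ones were Col1a2 (0.0383 FPKM in KO and 0.0416 FPKM in WT) and Pdgfra (0.392 and 0.191 FPKM). Tpbpa of the trophoblast, also untested, was at 0.0220 FPKM in KO and listed at 0 in WT. Whether these cells take part in the differences below was not tested. The 2 genotypes differed over the whole table. Tested genes summed to 624340 FPKM in KO and 981679 FPKM in WT, and the median log2 fold change ran from 0.69 in the lowest decile of genes by level to -0.72 in the highest, so each called gene below is also set against the median of its own decile.

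Called imprinted genes lay in both directions. At the authors' q under 0.05, 14 of the 31 tested imprinted genes were called (45.2%), against 50.8% of all tested genes. In KO, 6 were higher (Dio3, Igf2r, Peg3, Zim1, Slc22a18 and Sgce), against 22.4% of all tested genes, and 8 were lower (Cdkn1c, Phlda2, Dlk1, Usp29, Mirg, Snrpn, Ube3a and Copg2), against 28.4%. These shares are near the background, so the counts alone are no result about imprinted genes. The median log2 fold change was -0.15 over the tested members and -0.06 over all tested genes. With totals made equal every log2 fold change would be 0.65 higher, which puts 8 of the 14 called members above 0 and 6 below, with Copg2 and Ube3a on the other side of 0. Set against their decile by level, 7 lay above and 7 below, with Copg2 on the other side of 0. Of the called members, 8 differed by at least 2-fold, 5 of them higher and 3 lower in KO. Dio3 and Zim1 are counted among the 6 and the 5 higher ones. Both stood below 0.403 FPKM in WT, the highest level of an untested member, so a called fall may not have been possible for them.

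**Figure D1:**
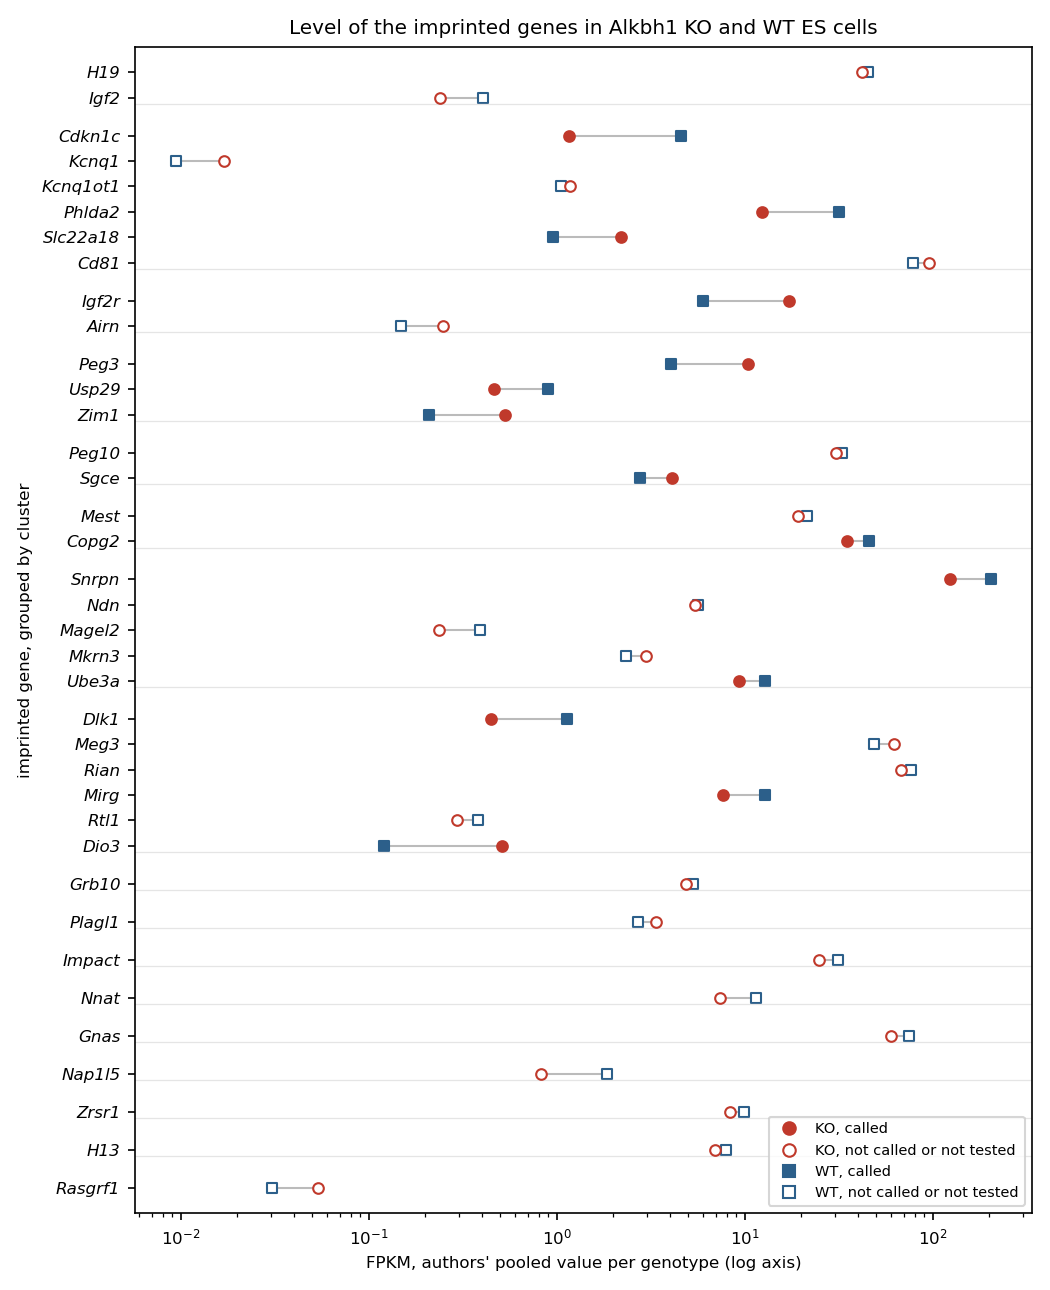
Pooled FPKM of each of the 37 imprinted genes (log axis) in KO (red circles) and WT (blue squares), in the order of their clusters, with 1 value per genotype and no error. Filled symbols mark the 14 called genes. Cdkn1c, Phlda2 and Dlk1 lie well to the left in KO, and Igf2r, Peg3, Zim1, Slc22a18 and Dio3 to the right.

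The Peg3 cluster on proximal chromosome 7 held 2 called rises (Peg3 and Zim1) and a called fall (Usp29). Peg3 encodes a zinc finger protein made from the paternal copy and known for its part in growth and maternal behaviour. In the authors' deposited table Peg3 (chromosome 7, 6658670 to 6683130, build mm9, as the table gives positions here and below) had 10.4 FPKM in KO and 4.05 FPKM in WT, a log2 fold change of 1.35 (q = 0.000206), which is 1.27 above the median of its decile. Only 4.99% of tested genes had a higher fold change. Zim1, a zinc finger gene made from the maternal copy, rose to 0.531 FPKM in KO, against 0.210 FPKM in WT, in the authors' deposited table (log2 fold change 1.34, q = 0.000390). It lay 0.65 above the median of its decile. Its WT level was below 0.403 FPKM, the highest level of an untested member. Zim1 may thus have entered the test through its KO level, and a called fall may not have been possible. Usp29, which encodes a ubiquitin-specific protease and is also made from the paternal copy, fell to 0.465 FPKM in KO, against 0.895 FPKM in WT, in the authors' deposited table (-0.95, q = 0.00757). Its distance below the median of its decile was larger, at -1.64.

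Peg3 and Usp29 are transcribed away from each other, and the table leaves 163 bases between their regions. RefSeq places the same number of bases between their starts, at chr7:6730420-6730582 (GRCm38.p6, plus strand, 5′ to 3′). They are shown because a pair of called genes that differ in direction flank them. Here and in the sequences below, capitals mark TGCCGC or its reverse complement GCGGCA, the hexamer that ZFP57, a protein that keeps imprints, binds when it is methylated; none occurs in this stretch, which holds 5 CpG pairs.
Peg3-Usp29: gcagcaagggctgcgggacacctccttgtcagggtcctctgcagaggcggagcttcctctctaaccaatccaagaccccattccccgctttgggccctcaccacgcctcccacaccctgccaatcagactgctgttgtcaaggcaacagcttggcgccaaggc

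The ratio of Peg3 to Usp29 was 22.3 in KO and 4.53 in WT. The antisense transcript Peg3os, listed in the same region as Peg3, had 18.2 FPKM in KO and 10.5 FPKM in WT in the authors' deposited table (log2 fold change 0.79, q = 0.0797). Zim3, which shares the listed region of Usp29, had 2.17 FPKM in KO and 1.81 FPKM in WT in the authors' deposited table (0.26, q = 0.409). The library kit keeps strand, but the sources used here do not say whether the counting did, so values of genes that overlap, such as these, are uncertain.

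Igf2r rose 2.87-fold, the largest rise among members at 1 FPKM or more in either genotype. It encodes the receptor that takes IGF2 to the lysosome for breakdown, and its paternal copy is silenced in later tissues by Airn, a non-coding RNA that runs antisense through it. In undifferentiated ES cells Airn is known to be low and Igf2r to be made from both copies. In the authors' deposited table Igf2r (chromosome 17, 12875271 to 13061009, a region joined with Airn and Mas1) had 17.2 FPKM in KO and 6.0 FPKM in WT (log2 fold change 1.52, q = 0.000206). It lay 1.55 above the median of its decile, and 3.47% of tested genes had a higher fold change. Airn had 0.249 FPKM in KO and 0.148 FPKM in WT and was not tested.

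The Kcnq1 cluster on distal chromosome 7 held the deepest fall among the members, beside a rise. Its maternal genes are silenced on the paternal copy through Kcnq1ot1, a long non-coding RNA. Cdkn1c, which encodes the cyclin-dependent kinase inhibitor p57, a brake on growth, fell 3.96-fold to 1.16 FPKM in KO, against 4.58 FPKM in WT (chromosome 7, 150644243 to 150646955). Its log2 fold change in the authors' deposited table was -1.98 (q = 0.000206), and 99.6% of tested genes had a higher one. Phlda2, a pleckstrin homology domain gene that limits placental growth, fell 2.59-fold to 12.3 FPKM in KO, against 31.9 FPKM in WT, in the authors' deposited table (-1.37, q = 0.000206). Both lay far below their level deciles, by -2.21 for Cdkn1c and -1.03 for Phlda2. Slc22a18, an organic cation transporter gene that lies between them, rose 2.32-fold to 2.20 FPKM in KO, against 0.951 FPKM in WT, in the authors' deposited table (1.21, q = 0.000206). It lay 0.86 above the median of its decile. Tssc4, another gene within the cluster, fell to 14.8 FPKM in KO, against 24.3 FPKM in WT, in the authors' deposited table (-0.72, q = 0.000390). The other 3 members were not called. Kcnq1ot1 had 1.17 FPKM in KO and 1.05 FPKM in WT in the authors' deposited table (0.15, q = 0.423). Cd81, a tetraspanin gene at the edge of the cluster, had 95.6 FPKM in KO and 78.2 FPKM in WT in the authors' deposited table (0.29, q = 0.108). Kcnq1, a potassium channel gene, was at 0.0170 FPKM in KO and 0.00940 FPKM in WT and was not tested.

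The bases before the start of Phlda2 are shown as those of the deepest called fall with a promoter in the RefSeq table (Cdkn1c had no entry there). They lie at chr7:143502525-143502774 (GRCm38.p6, minus strand), hold 21 CpG pairs and have no copy of the hexamer.
Phlda2: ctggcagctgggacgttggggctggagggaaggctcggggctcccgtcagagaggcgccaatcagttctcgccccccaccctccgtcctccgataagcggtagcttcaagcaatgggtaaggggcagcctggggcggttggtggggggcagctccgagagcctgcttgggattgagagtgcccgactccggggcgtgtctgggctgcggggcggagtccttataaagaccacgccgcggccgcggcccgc

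The Dlk1-Dio3 cluster on chromosome 12 fell at its Dlk1 end and rose at its Dio3 end. Its protein-coding genes Dlk1, Rtl1 and Dio3 are made from the paternal copy, and Meg3, Rian and Mirg are long non-coding RNAs of the maternal copy that carry small nucleolar RNAs and microRNAs. Meg3 and Rian are known to be silenced in some ES and reprogrammed lines, and here both were abundant in both genotypes. Meg3 had 62.1 FPKM in KO and 48.4 FPKM in WT in the authors' deposited table (log2 fold change 0.36, q = 0.136). Rian had 67.3 FPKM in KO and 76.4 FPKM in WT in the authors' deposited table (-0.18, q = 0.327). Mirg, farther along, fell to 7.64 FPKM in KO, against 12.7 FPKM in WT, in the authors' deposited table (-0.74, q = 0.000206), which is 60.0% of the WT level. With equal totals its log2 fold change was only -0.085. Meg3 thus stood above and Mirg below the median of their deciles, by 0.87 and -0.70.

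Dlk1, which encodes a membrane protein that acts on Notch signalling, fell 2.55-fold to 0.444 FPKM in KO, against 1.13 FPKM in WT, in the authors' deposited table (log2 fold change -1.35, q = 0.000206). Relative to the median of its decile it stood at -1.81. Dio3, which encodes the deiodinase that inactivates thyroid hormone, had the largest fold rise of all members and the lowest WT level among those tested. It stood at 0.509 FPKM in KO and 0.121 FPKM in WT in the authors' deposited table (2.07, q = 0.00779), 1.38 above the median of its decile. Dio3 and Zim1 were the only tested members with a genotype below 0.403 FPKM, the highest level of an untested member. Dio3, like Zim1, may thus have entered the test through its KO level, and a called fall may not have been possible. Rtl1, a gene derived from a retrotransposon, was at 0.293 FPKM in KO and 0.380 FPKM in WT and was not tested. The bases before the start of Dio3 are shown as those of the largest called rise, at chr12:110278980-110279229 (GRCm38.p6, plus strand), with 21 CpG pairs and no hexamer.
Dio3: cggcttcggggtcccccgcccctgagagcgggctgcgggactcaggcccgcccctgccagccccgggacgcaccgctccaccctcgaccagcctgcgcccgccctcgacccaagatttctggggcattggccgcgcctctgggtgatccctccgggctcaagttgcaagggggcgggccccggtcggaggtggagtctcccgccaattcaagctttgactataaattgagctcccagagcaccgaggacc

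In the Prader-Willi and Angelman region of central chromosome 7, Snrpn and Ube3a fell and the paternal genes at the far end were not called. Snrpn, which encodes the splicing protein SmN, was the most abundant member and fell to 123 FPKM in KO, against 204 FPKM in WT, in the authors' deposited table (log2 fold change -0.73, q = 0.000206). Genes of its decile had a median of -0.72, which Snrpn matched to -0.01. With equal totals its log2 fold change was only -0.078. Snurf, which shares its transcript, had 7.26 FPKM in KO and 12.1 FPKM in WT in the authors' deposited table (-0.74, q = 0.392). D7Ertd715e, a transcript that the table lists beside them, fell to 39.1 FPKM in KO, against 65.9 FPKM in WT, in the authors' deposited table (-0.75, q = 0.000206). These 3 rows stood at 60.2%, 60.0% and 59.4% of their WT level. Ube3a, which encodes a ubiquitin ligase and is made from both copies outside neurons, fell to 9.31 FPKM in KO, against 12.8 FPKM in WT, in the authors' deposited table (-0.46, q = 0.0246), but lay above 0 with equal totals (0.20). Relative to the median of its decile Ube3a stood at -0.42.

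Ndn, Mkrn3 and Magel2 lie together at the other end of that region. Ndn, which encodes necdin, had 5.45 FPKM in KO and 5.65 FPKM in WT in the authors' deposited table (log2 fold change -0.05, q = 0.849). Mkrn3, a ring finger gene, had 2.98 FPKM in KO and 2.35 FPKM in WT in the authors' deposited table (0.34, q = 0.147). Magel2, a relative of Ndn, was at 0.236 FPKM in KO and 0.390 FPKM in WT and was not tested.

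**Figure D2:**
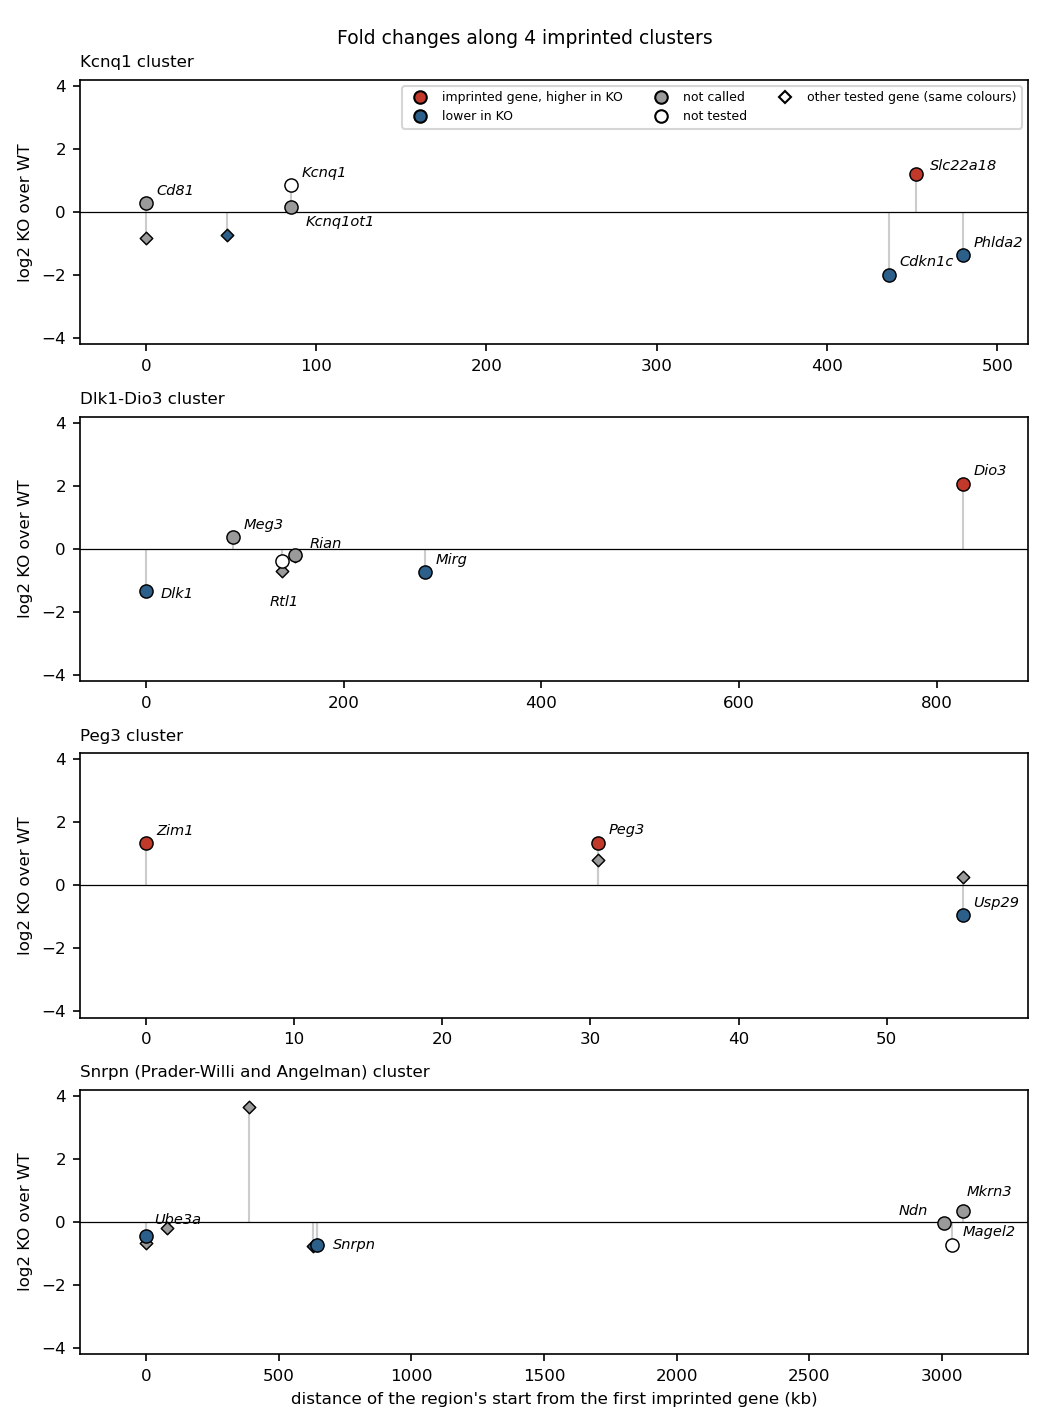
Log2 fold change of KO over WT for imprinted genes (circles) and other tested genes (diamonds) along 4 clusters, against the distance in kb of each region's listed start from the first imprinted gene. Red is called higher, blue called lower (Ube3a lies above 0 with equal totals), grey not called and white not tested, and genes listed at 0 in a genotype are left out. Neighbouring members lie on opposite sides of 0 in all 4 panels, in the Snrpn panel with Magel2 (not tested) and Mkrn3 (not called).

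H19 and Igf2, which share enhancers and an insulator on distal chromosome 7, were not called. H19, a growth-limiting non-coding RNA of the maternal copy, had 42.1 FPKM in KO and 45.4 FPKM in WT in the authors' deposited table (log2 fold change -0.11, q = 0.583). Igf2, the growth factor gene of the paternal copy, was at 0.239 FPKM in KO and 0.403 FPKM in WT and was not tested. H19 was thus abundant and Igf2 scarce in both genotypes.

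On chromosome 6, another pair of genes runs in opposite directions from neighbouring starts. The table leaves 101 bases between Sgce and Peg10, both made from the paternal copy. Sgce, which encodes epsilon-sarcoglycan, rose to 4.10 FPKM in KO, against 2.77 FPKM in WT, in the authors' deposited table (log2 fold change 0.57, q = 0.0152). Peg10, a retrotransposon-derived gene needed for the placenta, had 30.5 FPKM in KO and 33.0 FPKM in WT in the authors' deposited table (-0.11, q = 0.564). Relative to their deciles the pair stood close together, at 0.34 for Sgce and 0.23 for Peg10.

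Mest and Copg2, farther along chromosome 6, overlap and share a listed region. Mest, a hydrolase-family gene of the paternal copy, had 19.2 FPKM in KO and 21.3 FPKM in WT in the authors' deposited table (log2 fold change -0.15, q = 0.737). Copg2, which encodes a coatomer subunit, was called lower at 34.8 FPKM in KO, against 45.9 FPKM in WT, in the authors' deposited table (-0.40, q = 0.0463), but lay above 0 with equal totals (0.25) and above the median of its decile (0.11). The Mest promoter is shown as an uncalled one inside a region methylated in the germ line, with 2 copies of the hexamer in 250 bases and 14 CpG pairs, at chr6:30737800-30738049 (GRCm38.p6, plus strand).
Mest: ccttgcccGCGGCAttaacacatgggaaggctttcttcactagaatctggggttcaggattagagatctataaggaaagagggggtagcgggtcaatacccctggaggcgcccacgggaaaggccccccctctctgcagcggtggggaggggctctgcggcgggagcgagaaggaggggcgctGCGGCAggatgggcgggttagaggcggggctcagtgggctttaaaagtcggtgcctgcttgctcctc

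The 9 imprinted genes that stood alone in their cluster were not called. Of the 8 tested, 0 passed the authors' q, and 2 (Impact and Nnat) had a deposited p under 0.05 before adjustment, while 14 of 23 tested members in clusters of several were called (60.9%), against 50.8% of all tested genes. The difference between single and clustered members was not tested. The 8 had log2 fold changes from -1.16 to 0.32 in the authors' deposited table, with a median of -0.28. Impact, a regulator of translation under amino acid shortage, had 24.8 FPKM in KO and 31.2 FPKM in WT in the authors' deposited table (-0.33, q = 0.0665). Gnas, which encodes the stimulatory G protein alpha subunit beside several imprinted transcripts, had 60.2 FPKM in KO and 74.7 FPKM in WT in the authors' deposited table (-0.31, q = 0.0932). Grb10, an adaptor that dampens insulin receptor signalling, had 4.89 FPKM in KO and 5.27 FPKM in WT in the authors' deposited table (-0.11, q = 0.622). Plagl1, a zinc finger gene known to act on other imprinted genes, had 3.38 FPKM in KO and 2.70 FPKM in WT in the authors' deposited table (0.32, q = 0.122). Rasgrf1, a Ras exchange factor gene, was at 0.0538 FPKM in KO and 0.0305 FPKM in WT and was not tested.

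At 4 of these single loci an imprinted gene is nested in an intron of a host gene. The other gene of the pair was called at 3 of them (the hosts Herc3 and Commd1 and the guest Mcts2). Over all tested genes 50.8% were called, so this count is no result about such loci. Nap1l5, a nucleosome assembly relative, had 0.821 FPKM in KO and 1.84 FPKM in WT in the authors' deposited table (log2 fold change -1.16, q = 0.139), while its host Herc3 rose to 5.45 FPKM in KO, against 2.93 FPKM in WT (0.90, q = 0.000206). The ratio of Nap1l5 to Herc3 was 0.151 in KO and 0.627 in WT. Zrsr1, a splicing factor relative, had 8.32 FPKM in KO and 9.86 FPKM in WT in the authors' deposited table (-0.24, q = 0.511). Its host Commd1 fell to 117 FPKM in KO, against 232 FPKM in WT, in the authors' deposited table (-0.98, q = 0.000206). At the H13 locus the guest, Mcts2, fell to 36.0 FPKM in KO, against 56.4 FPKM in WT, in the authors' deposited table (-0.65, q = 0.0165), but lay just above 0 with equal totals. H13 itself, which encodes a signal peptide peptidase, had 6.93 FPKM in KO and 7.98 FPKM in WT in the authors' deposited table (-0.20, q = 0.583). Nnat, which encodes the membrane protein neuronatin, had 7.36 FPKM in KO and 11.5 FPKM in WT in the authors' deposited table (-0.65, q = 0.0749), and its host Blcap had 11.1 FPKM in KO and 10.8 FPKM in WT (0.04, q = 0.882). Each guest shares its listed region with its host, so reads may be divided between them, and Mcts2 resembles its parent gene on the X chromosome, which makes its reads uncertain.

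The Nap1l5 promoter is shown because its germline-methylated region lies inside the host, at chr6:58907127-58907376 (GRCm38.p6, minus strand). It holds 10 CpG pairs and 1 copy of the hexamer, close to the start.
Nap1l5: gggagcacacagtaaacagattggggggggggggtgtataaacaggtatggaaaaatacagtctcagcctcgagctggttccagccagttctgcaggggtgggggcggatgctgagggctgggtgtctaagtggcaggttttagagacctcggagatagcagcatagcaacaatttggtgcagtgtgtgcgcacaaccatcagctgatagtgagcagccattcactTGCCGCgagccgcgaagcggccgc

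Promoters were found for 30 of the 37 members in the RefSeq table. The 250 bases before a start were searched on both strands for TGCCGC, which does not overlap itself. At least 1 promoter of 6 members held it (Copg2, Meg3, Mest, Nap1l5, Plagl1 and Zim1), which is 20.0%, against 9.84% of the 27025 genes in the table. Zim1 was called higher and Copg2 lower (above 0 with equal totals), and the other 4 were not called. The median promoter held 10 CpG pairs over members and 6 over the whole table. Counted per promoter, the hexamer was in 16.3% of 43 for members and in 8.68% of 32851 for all genes. Whether members differ from other genes in the hexamer was not tested. CpG pairs before the called rises varied (Sgce had no entry), with 27 before Igf2r, 21 before Dio3, 14 before Zim1, 8 before Peg3 and 0 before Slc22a18.

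Grouped by the parental copy that is usually transcribed, 8 of 14 tested maternal genes were called in KO (57.1%, with 3 higher and 5 lower), and 6 of 16 tested paternal ones (37.5%, with 3 higher and 3 lower). These shares lie on either side of the 50.8% over all tested genes, and the difference between them was not tested. The medians were close, with a log2 fold change of -0.15 for maternal and -0.13 for paternal genes. Maternal calls included both the rises of Igf2r, Slc22a18 and Zim1 and the falls of Cdkn1c, Phlda2, Mirg, Ube3a and Copg2, the last 2 of which lie above 0 with equal totals. Gnas was left out, since its transcripts differ in parental copy. Igf2r and Ube3a were kept as maternal. Igf2r is known to be made from both copies in undifferentiated ES cells, and Ube3a outside neurons, so the grouping need not hold in these cells. Of the 6 long non-coding members, 5 were tested and 1 (Mirg) was called (20.0%, against 50.8% of all tested genes), too few to set apart from the rest.

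**Figure D3:**
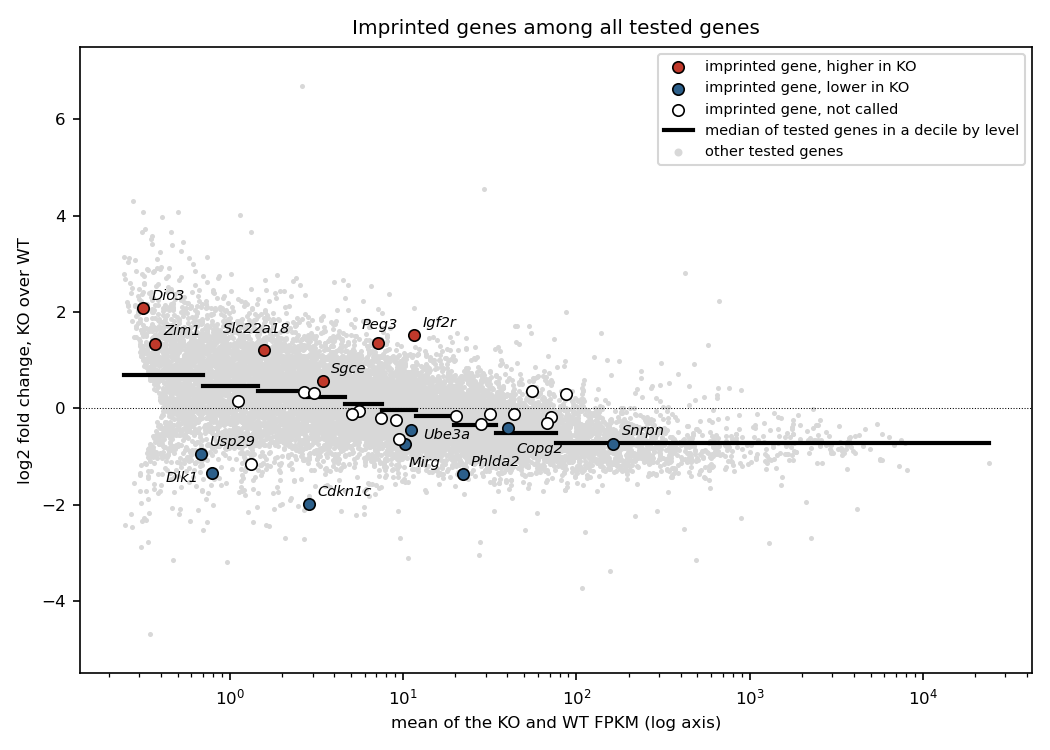
Log2 fold change of KO over WT against the mean FPKM of both genotypes (log axis) for all tested genes (grey) and the imprinted genes (red called higher, blue called lower, white not called). Black bars are the medians of deciles by level, from 0.69 down to -0.72. Snrpn lies on the bar of its decile at -0.72, Copg2 lies above its bar, and Cdkn1c, Dlk1, Usp29 and Phlda2 lie below theirs.

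Genes that set, keep or erase imprints were examined as a list of 27. Of the 26 tested, 3 were called higher in KO (Tet3, Tet2 and Dnmt1) and 11 lower (53.8% in all, near the 50.8% over all tested genes). The median log2 fold change of -0.20 stood beside -0.06 for all tested genes, but was 0.17 relative to level deciles. With equal totals 6 of the 11 lie above 0 (Hells, Trim28, Dnmt3l, Ctcf, Dppa3 and Zfp445), and relative to level deciles 5 do. Dnmt1, the enzyme that copies cytosine methylation after replication, rose to 58.0 FPKM in KO, against 38.2 FPKM in WT, in the authors' deposited table (0.60, q = 0.000206). Its partner Uhrf1 had 91.0 FPKM in KO and 101 FPKM in WT in the authors' deposited table (-0.15, q = 0.425). ZFP57 recruits TRIM28 to methylated imprinting control regions. Zfp57 had 212 FPKM in KO and 233 FPKM in WT in the authors' deposited table (-0.14, q = 0.491). Trim28 fell to 431 FPKM in KO, against 633 FPKM in WT, in the authors' deposited table (-0.55, q = 0.00218), above the median of its decile and above 0 with equal totals.

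The deepest falls of that list were in the methyltransferase gene Dnmt3a, Mbd3, a subunit gene of the NuRD complex, and Naa10, an acetyltransferase gene. Dnmt3a, which lays down new methylation, fell to 13.9 FPKM in KO, against 27.0 FPKM in WT, in the authors' deposited table (log2 fold change -0.95, q = 0.000206). Mbd3 fell to 29.7 FPKM in KO, against 52.9 FPKM in WT, in the authors' deposited table (-0.83, q = 0.000206). Naa10 fell to 44.4 FPKM in KO, against 75.9 FPKM in WT, in the authors' deposited table (-0.77, q = 0.000206). The TET enzymes oxidise methylated cytosine. Tet2 rose to 17.2 FPKM in KO, against 9.95 FPKM in WT, in the authors' deposited table (0.79, q = 0.000206). Tet3 rose to 0.524 FPKM in KO, against 0.299 FPKM in WT, in the authors' deposited table (0.81, q = 0.000560). Relative to the medians of their deciles, Dnmt1, Tet2 and Tet3 stood at 1.12, 0.94 and 0.12. Dnmt3a, Mbd3 and Naa10 stood at -0.61, -0.32 and -0.26. The WT level of Tet3 was below 0.403 FPKM, as for Zim1 and Dio3, so a called fall may not have been possible. Whether these levels bear on the imprinted genes was not tested.

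**Figure D4:**
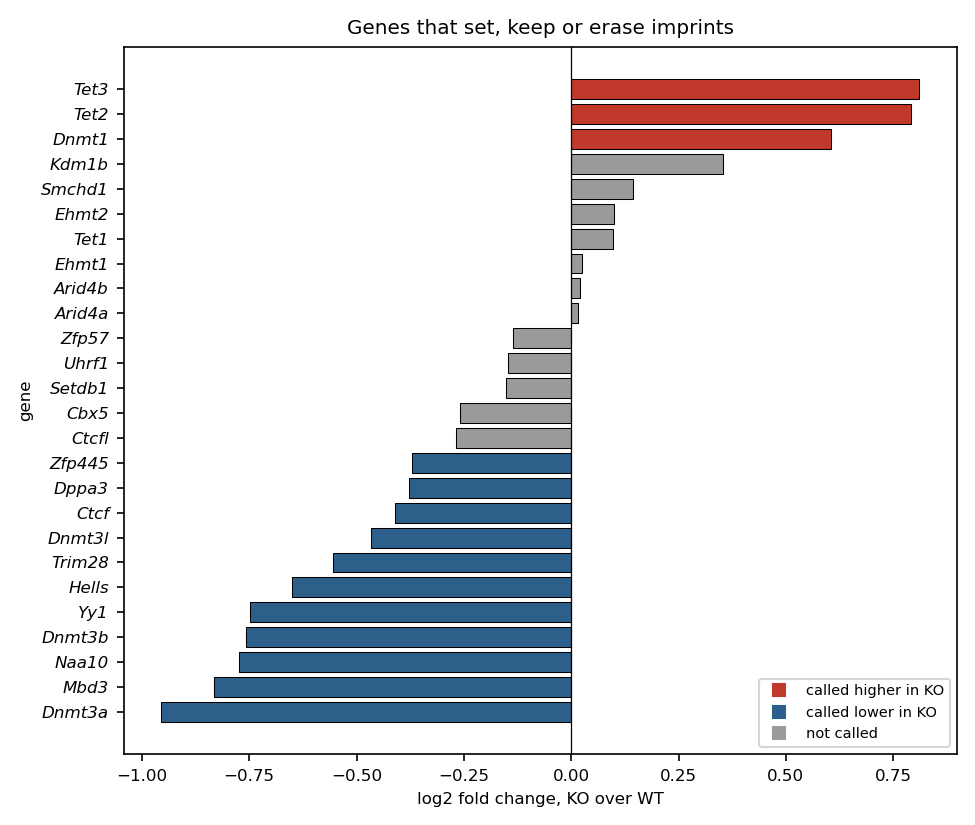
Log2 fold change of KO over WT for the 26 tested genes that set, keep or erase imprints, with called rises in red, called falls in blue and uncalled genes in grey, from single pooled values with no error. The bars run from -0.95 (Dnmt3a) to 0.81 (Tet3), and with equal totals each bar would end 0.65 farther right, which puts 6 of the 11 called falls above 0.

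Other genes in and beside the same clusters were listed by 44 symbols, of which 42 had a row and 30 were tested. They gave 5 rises and 8 falls (43.3% called, against 50.8% of all tested genes), with a median log2 fold change of -0.08. With equal totals 3 of the falls (Mcts2, Ascl2 and Atp10a) lie above 0. The rises were Osbpl5, Pon3, Begain, Herc3 and Ppp1r9a. Osbpl5, an oxysterol-binding relative at the edge of the Kcnq1 cluster, rose to 0.725 FPKM in KO, against 0.309 FPKM in WT, in the authors' deposited table (1.23, q = 0.000560). Pon3, a paraoxonase gene near Peg10, rose to 1.24 FPKM in KO, against 0.563 FPKM in WT, in the authors' deposited table (1.14, q = 0.00134). Begain, upstream of Dlk1, rose to 0.575 FPKM in KO, against 0.299 FPKM in WT, in the authors' deposited table (0.94, q = 0.0119). Osbpl5 and Begain stood below 0.403 FPKM in WT, as Zim1 and Dio3 did, so a called fall may not have been possible. Among the falls, Ddc, the dopa decarboxylase gene next to Grb10, fell to 23.7 FPKM in KO, against 57.6 FPKM in WT, in the authors' deposited table (-1.28, q = 0.000206). Tspan32, a tetraspanin gene beside Cd81, fell to 0.867 FPKM in KO, against 1.81 FPKM in WT, in the authors' deposited table (-1.06, q = 0.00104). Relative to the medians of their deciles, Osbpl5, Pon3 and Begain stood at 0.54, 0.67 and 0.25, and Ddc and Tspan32 at -0.77 and -1.52.

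Imprinted genes elsewhere in the genome were listed by 22 symbols, of which 19 had a row and 15 were tested. They gave 5 rises (Phactr2, Tbc1d12, Ampd3, Qpct and Sfmbt2) and 2 falls (Wt1 and Jade1). That is 46.7% called, near the 50.8% of all tested genes. The median log2 fold change was 0.23, and Jade1 lay above 0 with equal totals. Phactr2, a phosphatase and actin regulator gene, rose to 0.915 FPKM in KO, against 0.400 FPKM in WT, in the authors' deposited table (1.19, q = 0.000206). Its WT level was below 0.403 FPKM, as for Zim1 and Dio3, so a called fall may not have been possible. Wt1, a transcription factor gene of kidney and gonad that is imprinted in some human tissues, fell to 0.522 FPKM in KO, against 2.83 FPKM in WT, in the authors' deposited table (-2.44, q = 0.000206). Relative to the medians of their deciles, Phactr2 stood at 0.50 and Wt1 at -2.79.

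Partners of the imprinted growth axis of Igf2, Igf2r and Grb10 gave 2 rises and 2 falls among 8 tested of 15 listed (50.0% called, near the 50.8% of all tested genes), with a median log2 fold change of -0.06. Insr, the insulin receptor gene, rose to 4.03 FPKM in KO, against 2.21 FPKM in WT, in the authors' deposited table (0.87, q = 0.000206). Igf1r, which encodes the receptor that signals for IGF2, rose to 2.59 FPKM in KO, against 1.58 FPKM in WT, in the authors' deposited table (0.71, q = 0.000206). Igfbp3, a secreted binding protein gene, fell to 5.06 FPKM in KO, against 8.56 FPKM in WT, in the authors' deposited table (-0.76, q = 0.000206). Igf2bp3, which encodes an RNA-binding protein named for Igf2 mRNA, fell to 12.8 FPKM in KO, against 16.9 FPKM in WT, in the authors' deposited table (-0.40, q = 0.0282), but lay above 0 with equal totals.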

How the data were processed

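Libraries were made from total RNA of TT2 ES cells by a strand-specific messenger RNA protocol, per the labels' protocols, 4 from KO and 2 from WT cells. Alignment used TopHat2 on mm9, per the submitters' processing notes; no source used here gives its version, the annotation or the strand setting. The authors deposited a single table, laid out as Cuffdiff writes a gene comparison, with 1 pooled FPKM value per condition. Per the file headers, the authors' table also holds a log2 fold change (KO over WT), a test statistic, which is a score, and a p-value with its q-value. The smallest deposited p of 5e-05 gives q = 0.000206, shared by 3418 rows, which cannot be ranked by it.

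No test was run anew, since no library has a value of its own. A gene was called where the authors' q was under 0.05, higher or lower by the sign of its fold change. Medians leave out genes listed at 0 in a genotype. Deciles were formed by the mean of both FPKM values over tested genes. For equal totals, each log2 fold change was raised by 0.65 and its call left as it was. Positions are those of the table (mm9); a region joined for overlapping genes holds for 22 of the 37 members. Promoters came from RefSeq (GRCm38.p6), matched by symbol, and no positions were carried between builds. Decile medians and the adjustment of p-values were tested on simulated data. Members and lists were chosen with earlier results of these data known. Named were all members with a row, of each other list up to 3 called genes in each direction by size of fold change, 4 keepers of imprints (Dnmt1, Uhrf1, Zfp57 and Trim28) and Alkbh1; partners in overlapping regions, Tssc4, single markers of cell types and genes named to fill a count of 5 or fewer were chosen after their values were seen. Computation used Python 3.11.15, pandas 2.3.3, NumPy 2.4.6 and matplotlib 3.10.9.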

Additional observations from a re-analysis of the deposited data

How the results depend on the processing

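The counts of 6 higher and 8 lower members each stayed within 1.5 times under q limits of 0.01 and 0.1 and a floor of 1 FPKM. A recomputed adjustment of the same p-values differed from the deposited q by at most 5.18e-07, so its counts of 6 and 8 add no support. A pseudocount of 1, equal totals and level deciles kept the 14 deposited calls. The pseudocount cannot turn a sign, so its counts were fixed in advance. The other 2 settings could only move called members across 0. The balance between higher and lower members was not kept, with 8 above 0 and 6 below with equal totals. Relative to level deciles it was 7 and 7. At least a 2-fold difference left 3 lower members, leaving out members under the 25th percentile of level left 3 higher, and keeping the 13 members with a region of their own left 3 lower and a median log2 fold change of -0.050. The median turned to 0.50 with equal totals and 0.013 relative to level deciles. Copg2 turned to 0.25 and 0.11 under those 2 settings, and Ube3a to 0.20 with equal totals. No other called member changed sign there, but with equal totals Mirg came to -0.085 and Snrpn to -0.078. Of the 17 uncalled members, 11 changed sign with equal totals and 8 relative to level deciles. No replicate could be left out, and depth limits cannot be given. No paired analysis was possible because the table holds 1 pooled value per genotype.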

Other observations

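The Dlk1-Dio3 interval holds rows for 60 microRNA genes in the authors' deposited table. Of these, 55 were listed at 0 in both genotypes and 5 were above 0 in at least 1. Mir494 was listed at 0 in KO and 31.6 FPKM in WT (q = 0.120), and Mir453 at 24.6 FPKM in KO and at 0 in WT (q = 0.194), both in the authors' deposited table. Neither was called. The libraries were made from messenger RNA, so levels of mature microRNAs cannot be read from any of the 60 rows. Mir453 also shares its listed region with Mirg, and whether its fragments came from Mirg was not tested.

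Between Ube3a and Snrpn, the non-coding transcript Ipw had 0.580 FPKM in KO and 0.0459 FPKM in WT, a log2 fold change of 3.66 that was not called (q = 0.265) in the authors' deposited table. It was singled out after its value was seen.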
